A study of Rattus norvegicus with 2 samples.

Results

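A set of 10 genes of VEGF and angiopoietin signalling was followed across clusters of cultured neonatal rat heart cells with and without lipopolysaccharide (LPS). The genes were *Vegfa*, *Vegfc*, *Kdr*, *Flt1*, *Flt4*, *Nrp1*, *Angpt1*, *Angpt2*, *Tek* and *Tie1*. They were chosen by symbol, and all 10 were found among the 25399 genes of the count tables. The cells came from hearts of Sprague-Dawley rats aged 1 to 3 days, pooled from both sexes, and had been enriched on Percoll for intrinsic cardiac adrenergic (ICA) cells, a catecholamine-producing cell type of the heart. The enriched cells were plated and cultured, and were treated in culture. No genetic change is named for either group, and the treatment was saline for the control and 1 µg/mL LPS, a bacterial cell wall component that drives inflammatory signalling, for the other. Exposure lasted 2 h, the RNA was counted with the 10x 3′ v2 kit, and each condition was 1 library of pooled animals. With 1 library per condition no test between conditions was possible, so every interval given here is a 95% interval that covers counting error only, and differences between animals or preparations are not in it.

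Vascular endothelial growth factors are secreted proteins that make endothelial cells divide, migrate and loosen their junctions. Vegfa acts through the receptors Kdr (VEGFR2), which carries most of the signal, and Flt1 (VEGFR1), which binds it tightly and signals weakly, while Vegfc acts mainly through Flt4 (VEGFR3) on lymphatic and growing vessels, and neuropilin Nrp1 serves as a coreceptor. The angiopoietins act on a second endothelial receptor, Tek (Tie2): Angpt1, made by perivascular cells, keeps vessels quiescent, Angpt2, made by endothelial cells, often opposes it, and Tie1 is a relative of Tek that modulates its signalling. Vegfa is a classical hypoxia-responsive gene, and the heart muscle is one of its main sources.

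The cells fell into 11 clusters of the authors' table, and 24210 cells had a cluster. Clusters 0, 1 and 7 were named Fibroblast there, cluster 3 ICA and Cardiomyocyte, clusters 4 and 5 Endothelial and cluster 6 Macrophages, and clusters 2, 8, 9 and 10 were uncommented. Cluster 4 was led by *Gpihbp1*, *Apln* and *Fabp4* and cluster 5 by *Selp* and *Plvap*, and the 5 measured endothelial markers (*Cdh5*, *Esam*, *Egfl7*, *Cldn5*, *Emcn*) were higher in both than in any other cluster. Cluster 2 was led by *Rgs5*, *Ndufa4l2* and *Kcnj8*, had the highest summed level of the 6 pericyte markers, 1221 UMIs per 1000000 in control and 975 in LPS, and is called pericyte-like. The 4 smooth muscle markers were also highest there, at 2430 and 2350. Cluster 1 was led by cell cycle genes such as *Top2a*. Libraries totalled 152624585 UMIs (unique molecular identifiers, each standing for 1 captured RNA molecule) in control and 127580475 in LPS, with medians of 12479 and 9432 UMIs per cell, and 194 barcodes occurred in both. A level is given in CPM, the summed UMIs of a gene per 1000000 UMIs of all genes in that cluster and library, and a ratio is the LPS level divided by the control level. Levels are set against each other only for 1 gene, never between genes.

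RefSeq promoter windows, running from 250 bases before to 50 after the annotated gene start on GRCr8, were matched for 7 of the 10 genes. Windows of *Vegfa* and of 3 receptor genes on which the results turn are printed as reference sequence only. The levels were counted from transcripts and not from these windows. Capitals mark matches, on either strand, of the GC box (GGGCGG), the hypoxia response cores ACGTG and GCGTG, the AP-1 site TGANTCA and the kappaB site. *Vegfa* is on the plus strand at chr9:22452604-22452903, *Kdr* on the plus strand at chr14:32571813-32572112, *Nrp1* on the plus strand at chr19:73256307-73256606 and *Tie1* on the minus strand at chr5:137304932-137305231. Each window covers the bases upstream of the gene and the first bases of its first exon.
Vegfa: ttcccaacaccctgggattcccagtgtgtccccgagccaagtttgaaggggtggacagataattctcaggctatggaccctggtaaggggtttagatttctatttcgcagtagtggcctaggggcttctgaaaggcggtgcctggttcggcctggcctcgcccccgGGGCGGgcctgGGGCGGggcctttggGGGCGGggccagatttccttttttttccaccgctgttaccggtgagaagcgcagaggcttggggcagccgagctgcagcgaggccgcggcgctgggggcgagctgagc
Kdr: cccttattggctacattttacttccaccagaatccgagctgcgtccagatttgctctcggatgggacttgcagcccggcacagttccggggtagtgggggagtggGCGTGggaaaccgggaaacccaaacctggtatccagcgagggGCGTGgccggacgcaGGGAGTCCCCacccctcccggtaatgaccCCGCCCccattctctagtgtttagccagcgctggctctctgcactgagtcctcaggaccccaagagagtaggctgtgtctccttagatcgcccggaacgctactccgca
Nrp1: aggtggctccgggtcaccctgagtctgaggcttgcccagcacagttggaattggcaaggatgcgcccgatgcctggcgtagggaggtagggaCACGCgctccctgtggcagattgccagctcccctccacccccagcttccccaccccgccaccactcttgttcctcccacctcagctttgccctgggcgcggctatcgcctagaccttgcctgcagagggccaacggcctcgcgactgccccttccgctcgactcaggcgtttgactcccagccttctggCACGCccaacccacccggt
Tie1: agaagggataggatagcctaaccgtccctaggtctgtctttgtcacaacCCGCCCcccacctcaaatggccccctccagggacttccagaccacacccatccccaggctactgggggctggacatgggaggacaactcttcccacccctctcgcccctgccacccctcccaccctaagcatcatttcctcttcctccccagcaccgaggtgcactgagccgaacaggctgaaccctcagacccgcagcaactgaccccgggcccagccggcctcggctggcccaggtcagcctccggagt

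The printed *Vegfa* window held 3 GC boxes and none of the other motifs, and a second *Vegfa* window at chr9:22460028-22460327, not printed, held none of the motifs. In the *Kdr* window there were 1 GC box, 2 GCGTG cores and 1 kappaB match. The *Nrp1* window held 2 GCGTG cores, and the *Tie1* window 1 GC box. Among 33469 RefSeq rat windows of this kind, 33.1% held a GC box, 19.3% ACGTG, 29.7% GCGTG, 7.3% the AP-1 site and 7.5% the kappaB site. ACGTG and AP-1 matches were absent from the windows of all 7 matched genes, which says only that these letters are not in these 300 bases. *Angpt1*, *Angpt2* and *Tek* are named without a window. The build behind the counts is not given in the sources used here, so these coordinates belong to the RefSeq windows alone.

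In both libraries *Kdr*, *Flt1*, *Flt4*, *Tek* and *Tie1* had their highest levels in an endothelial cluster and *Vegfa* in the cluster of ICA cells and cardiomyocytes, while *Nrp1* was highest in endothelial cluster 5 in control and shared by clusters 3, 4 and 5 with LPS. *Angpt1* had the fewest UMIs of the 10 genes. With LPS, *Vegfa* was higher in fibroblast clusters 0 and 1, pericyte-like cells, endothelial cluster 5, cluster 9 and, by a smaller ratio, cluster 3, *Angpt2* was lower in the fibroblast, pericyte-like and both endothelial clusters, and *Tek* and *Tie1* were lower in both endothelial clusters, *Tie1* in cluster 4 by little more than the median of all genes. The lower *Tek* and *Tie1* values in clusters 0 to 3 came at levels within or close to those of endothelial marker transcripts there. So did the lower *Angpt2* values in fibroblast cluster 1 and macrophage cluster 6, and all are given with those levels. *Kdr* and *Nrp1* differed in opposite directions in cluster 3 and endothelial cluster 5. The differences between LPS and control named here rest on intervals that exclude a ratio of 1. The statements on the highest level do not all do so. With LPS the *Vegfa* levels of clusters 3 and 9 did not differ beyond counting error. Nor did neighbours in the order of the *Nrp1* levels of clusters 3, 5 and 4. How far RNA from other clusters contributed to the *Vegfa* values of clusters 2 and 5 was not tested.

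**Figure D1:**
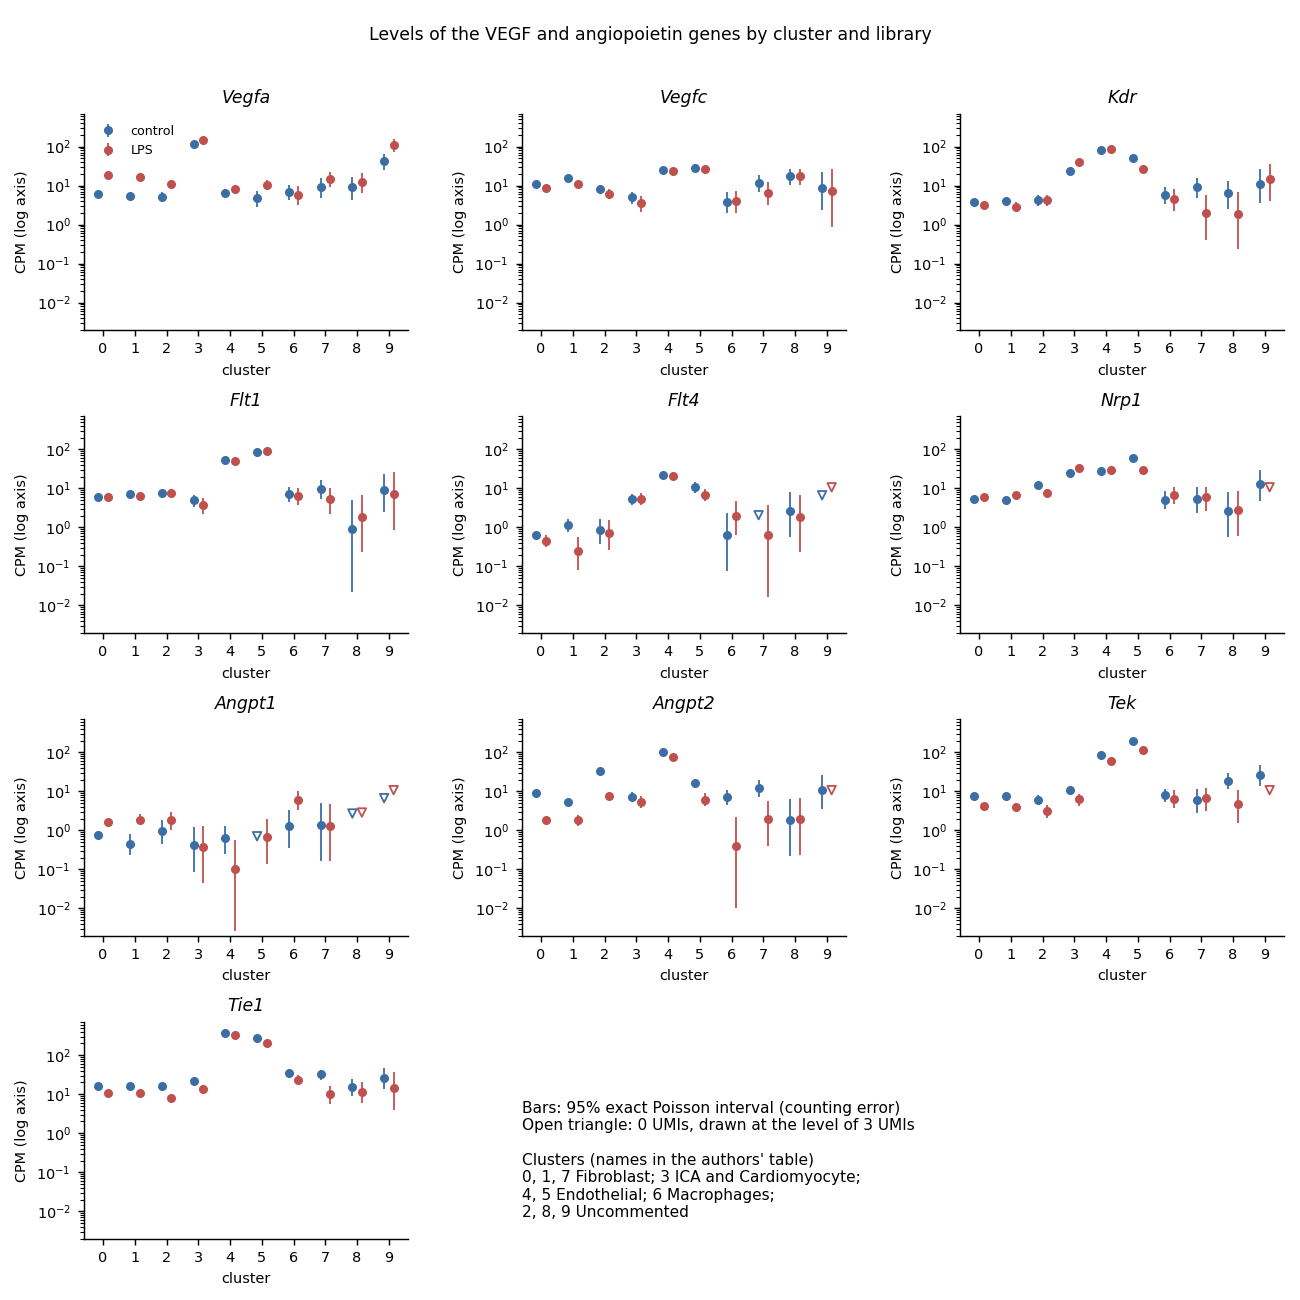
Level of each of the 10 genes (vertical log axis, CPM) in clusters 0 to 9 (horizontal axis) of the control library (blue) and the LPS library (red); bars are 95% exact Poisson intervals and an open triangle stands at the level of 3 UMIs where none was counted. *Vegfa* peaks in cluster 3 at 116 and 147, and *Kdr*, *Flt1*, *Flt4*, *Tek* and *Tie1* peak in clusters 4 and 5.

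*Vegfa*, the main angiogenic ligand, was counted with 824 UMIs in control and 803 in LPS in cluster 3, levels of 116 (109–125) and 147 (137–157). Second was cluster 9, a small cluster of 66 and 58 cells led by mitochondrial genes and *Myh6*, at 42.2 (25.4–65.9) and 107 (72.4–153); the LPS levels of these 2 clusters did not differ beyond counting error. Cluster 9 also had the highest summed level of the 8 fibroblast markers, 17272 and 14504 CPM, and 1267 and 1377 CPM of the 6 measured cardiomyocyte markers against 7302 and 7723 in cluster 3. Every other cluster lay between 4.71 and 9.0 in control, except cluster 10 with 0 UMIs, and no neighbours in the order of these levels differed beyond counting error. Cluster 3 thus held 48.0% of the *Vegfa* UMIs of the control library and the fibroblast clusters 40.9%, against 28.5% and 61.7% with LPS.

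The LPS library had 1374 *Vegfa* UMIs in fibroblast cluster 0 against 557 in control, levels of 18.6 (17.7–19.6) and 6.15 (5.65–6.69), a ratio of 3.03 (2.74–3.35). In cluster 1, the dividing fibroblasts, 343 UMIs stood against 132, a ratio of 3.10 (2.53–3.82). In pericyte-like cluster 2 the counts were 93 and 49 UMIs, a ratio of 2.12 (1.48–3.06). Endothelial cluster 5 showed a ratio of 2.24 (1.31–3.99) from only 48 and 20 UMIs, and endothelial cluster 4 one of 1.22 (0.875–1.71), whose interval holds 1. In cluster 3, where the level was highest, the ratio was 1.26 (1.14–1.39). Cells of cluster 6, the macrophages, had 14 and 21 UMIs, and the ratio of 0.835 (0.393–1.72) could not be told from 1 at this depth.

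Free RNA from broken heart muscle cells can place a cluster 3 transcript in any droplet, so *Vegfa* was set beside 6 cardiomyocyte markers. In control cluster 0 the *Vegfa* level was 5.29% of that in cluster 3 of the same library, and in LPS 12.7%. The markers *Tnnt2*, *Tnni3*, *Myh6*, *Actn2*, *Ryr2* and *Actc1* stood in cluster 0 at 1.14% to 2.27% of their cluster 3 level in control and at 0.487% to 1.86% in LPS. In cluster 0 *Vegfa* was above the marker range in both libraries, and the markers were lower with LPS where *Vegfa* was higher. In pericyte-like cluster 2 *Vegfa* stood at 4.49% of its cluster 3 level in control and at 7.56% in LPS. The 6 markers stood there at 1.64% to 4.62% and 1.07% to 3.96%. The control value was inside their range and the LPS value above it. The fibroblast clusters held 61.7% of the *Vegfa* UMIs with LPS. *Vegfa* levels in control and LPS were 6.15 and 18.6 in cluster 0. They were 5.23 and 11.1 in cluster 2 and 4.71 and 10.5 in cluster 5. The 8 fibroblast markers stood in cluster 2 at 24.1% to 76.9% of their cluster 0 level in control. With LPS they stood at 19.0% to 77.7%. Relative to cluster 0, *Vegfa* in cluster 2 was above that range in control and inside it with LPS. The part of free RNA in the *Vegfa* levels of clusters 0, 2 and 5 was not tested. After each cell was thinned to 3000 UMIs, 1.80% of control and 5.05% of LPS cells of cluster 0 held a *Vegfa* UMI. The shares for *Tnni3*, the cardiac troponin that fibroblasts should lack, were 5.86% and 4.41%, and the 2 transcripts differ in abundance at their source. The cells had median depths of 12968 and 9821.5 UMIs in that cluster, and unthinned shares of *Vegfa* were 7.62% and 16.8%. In cluster 3, with median depths of 7526 and 5269 UMIs, thinned shares were 30.6% (27.5–33.9) and 33.6% (30.5–36.7), and unthinned ones 57.8% and 53.8%.

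Within cluster 3, cells with a UMI of *Dbh*, the enzyme that makes norepinephrine and that the study uses to mark ICA cells, numbered 156 in control and 121 in LPS. Their *Vegfa* level was 111 (95–130) in control and 180 (150–213) with LPS. Cells of cluster 3 without a *Dbh* UMI had levels of 118 (109–127) and 141 (131–153). The intervals of the 2 kinds of cell overlap in both libraries, with LPS only between 150 and 153. Overlap of 2 intervals does not show equal levels, and a ratio between the 2 kinds of cell was not computed. Absence of a *Dbh* UMI at this depth does not show absence of its transcript. The study defined its ICA cells as a subcluster of cluster 3 expressing *Dbh*, which is not the set of cells used here.

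*Vegfc*, the ligand of Flt4, was spread more widely than *Vegfa*. Its control levels were 28.2 (23.4–33.8) in cluster 5 and 25.2 (22.3–28.3) in cluster 4, which did not differ beyond counting error, 17.1 in cluster 8, 15.2 in cluster 1 and 10.8 in cluster 0. Because fibroblasts made up most cells, the clusters named Fibroblast held 71.3% of its control UMIs. With LPS the level was lower in cluster 0, from 979 UMIs to 635 (ratio 0.796, 0.719–0.880), and in cluster 1, from 366 to 225 (ratio 0.733, 0.618–0.868). In the endothelium neither ratio could be told from 1: 236 against 280 UMIs in cluster 4 gave 0.963 (0.807–1.15), and 121 against 120 UMIs in cluster 5 gave 0.942 (0.725–1.22).

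*Kdr*, the principal signalling receptor, was highest in cluster 4, with 932 control and 854 LPS UMIs at levels of 83.8 (78.5–89.3) and 87.7 (81.9–93.8), a ratio of 1.05 (0.953–1.15). In cluster 5 it was counted 216 and 124 times, 50.8 (44.3–58.1) and 27.2 (22.7–32.5), a ratio of 0.536 (0.426–0.672). Cluster 3 showed the opposite direction, with 165 and 214 UMIs at 23.3 (19.9–27.2) and 39.0 (34.0–44.6), a ratio of 1.68 (1.36–2.06). The order of levels accordingly read cluster 4, 5, 3 in control and 4, 3, 5 with LPS, each step larger than counting error.

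The *Kdr* level of cluster 3 was 31.2% of the level in clusters 4 and 5 together in control and 57.0% in LPS. In the same cells the 5 endothelial markers stood at 2.67% to 7.71% of their endothelial level in control and at 3.04% to 7.37% in LPS, and *Flt1* at 7.91% and 5.91%. In cells of cluster 3 that held no UMI of any of these markers, 457 in control and 694 in LPS, *Kdr* was at 25.7 (20.7–31.7) and 38.9 (32.9–45.7), higher in LPS here too. Thinned to 3000 UMIs, 6.70% (5.10–8.61) of control and 11.1% (9.17–13.3) of LPS cells of cluster 3 held a *Kdr* UMI, against 4.90% and 4.21% for *Cdh5*, the endothelial cadherin that these cells should lack; unthinned, *Kdr* shares were 16.0% and 19.4%. The 4 endocardial markers summed to 247 CPM in control and 256 in LPS in cluster 3, the highest of clusters 0 to 9, of which *Cpe* gave 244 and 253, *Nfatc1* 2.97 and 2.55, and *Npr3* 0 and 1 UMI; their part in the *Kdr* and *Nrp1* levels was not tested. Cells with a *Dbh* UMI had *Kdr* levels of 24.6 (17.2–34.1) and 42.9 (29.1–60.8), close to the 23.0 and 38.5 of the cells without one. In control *Cdh5* was at 35.6 (26.6–46.6) in cells with a *Dbh* UMI and at 19.2 (15.8–23.2) in those without. With LPS the *Cdh5* levels were 15.2 (7.59–27.2) and 22.3 (18.2–26.9). Cells of cluster 3 had a median of 17.9% mitochondrial UMIs in control and 17.3% in LPS. With cells over 10% mitochondrial UMIs left out, 55 control and 85 LPS cells remained, with 13 and 12 *Kdr* UMIs and a ratio of 0.961, below 1.

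*Flt1*, the receptor that binds Vegfa tightly and signals weakly, was highest in cluster 5, with 359 and 403 UMIs at 84.5 (76.0–93.7) in control and 88.6 (80.1–97.6) in LPS. Cluster 4 followed with 602 and 479 UMIs at 54.1 (49.9–58.6) and 49.2 (44.9–53.8). None of the 7 clusters numbered 0 to 6 gave a ratio whose interval excluded 1, and the ratios ran from 0.738 in cluster 3 to 1.05 in cluster 5. Outside the endothelium the level in clusters 0, 1, 2, 3 and 6 lay at 7.91% to 12% of the endothelial level in control.

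*Flt4*, the Vegfc receptor, was counted 249 and 199 times in cluster 4, 22.4 (19.7–25.3) in control and 20.4 (17.7–23.5) in LPS, and 45 and 31 times in cluster 5, 10.6 and 6.81. Neither ratio, 0.913 (0.754–1.10) and 0.643 (0.394–1.04), could be told from 1. Cluster 3 followed with 37 and 30 UMIs, at 27.3% and 34.0% of the endothelial level. Among *Flt4* ratios with at least 20 UMIs, the only one past 2-fold was that of cluster 1, 0.213 (0.0642–0.559), from 28 control and 5 LPS UMIs. The levels there were 6.10% of the endothelial level in control and 1.54% in LPS. The 5 endothelial markers stood in cluster 1 at 2.36% to 8.60% and 2.09% to 9.12%, so the control value was inside their range and the LPS value below it.

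The coreceptor *Nrp1* had its highest control level in cluster 5, at 60.9 (53.8–68.8) from 259 UMIs, against 30.5 (25.7–36.1) from 139 UMIs in LPS. That ratio of 0.501 (0.405–0.618) lay just outside the 2-fold limit of 0.5. In cluster 4 the counts of 303 and 280 UMIs gave 27.2 and 28.8, a ratio of 1.06 (0.895–1.25). Cluster 3 had 171 and 178 UMIs at 24.2 (20.7–28.1) and 32.5 (27.9–37.6), a ratio of 1.34 (1.08–1.67), and pericyte-like cluster 2 had 114 and 65 UMIs, a ratio of 0.636 (0.461–0.870). With LPS neither cluster 3 and 5 nor cluster 5 and 4, the highest in that order, differed beyond counting error, whereas in control cluster 5 stood above cluster 4. In cells of cluster 3 without an endothelial marker UMI, *Nrp1* was at 24.6 (19.6–30.4) and 34.5 (28.9–40.9).

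**Figure D2:**
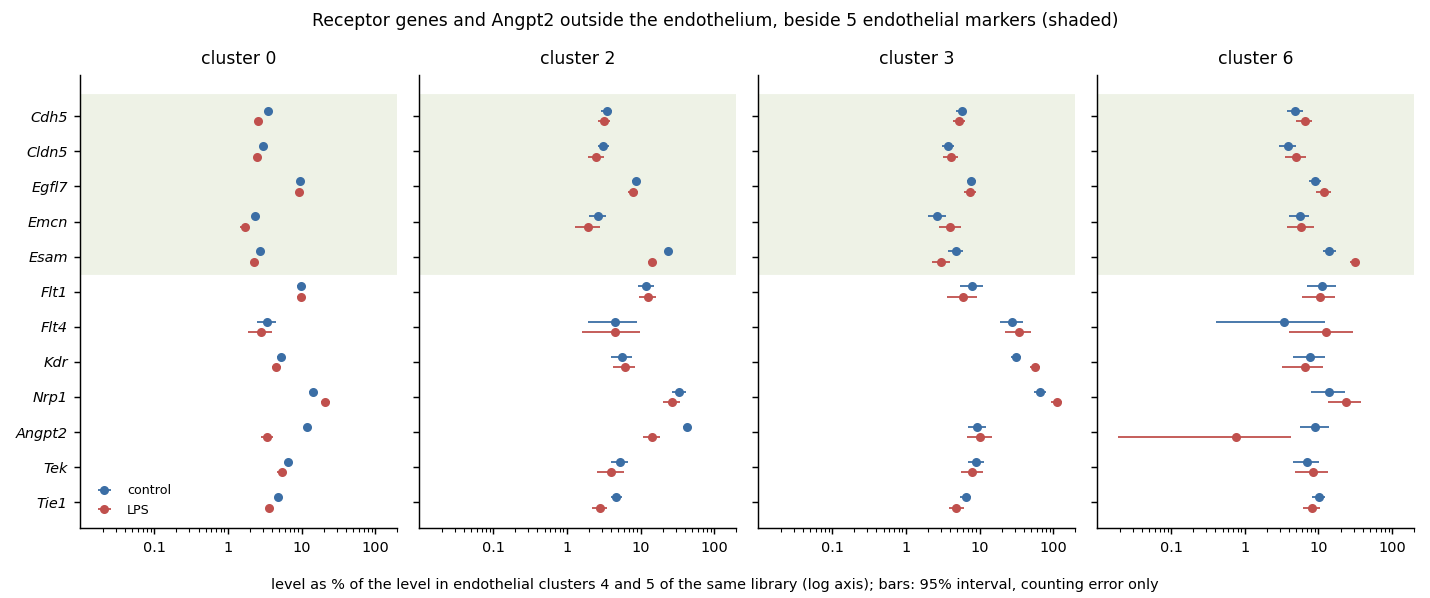
Levels outside the endothelium as a percentage of the level in endothelial clusters 4 and 5 of the same library (horizontal log axis) for 5 endothelial markers (shaded) and 7 of the genes, in clusters 0, 2, 3 and 6; blue is control, red is LPS and bars are 95% intervals for counting error. In cluster 3 *Kdr*, *Nrp1* and *Flt4* stand at 27.3% to 66.1% in control, above the markers at 2.67% to 7.71%, and in cluster 2 *Angpt2* goes from 42.5% to 14.2%.

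*Angpt1*, the quiescence ligand of Tek, was counted only 105 times in the control and 194 times in the LPS library, of which the fibroblast clusters held 78.1% and 81.4%. In cluster 0 its 69 and 118 UMIs were levels of 0.762 (0.593–0.965) and 1.60 (1.32–1.92), a ratio of 2.10 (1.55–2.87). Cluster 1 had 11 and 38 UMIs, a ratio of 4.12 (2.06–8.94). Pericyte-like cluster 2 had 9 and 15 UMIs, a ratio of 1.86 (0.762–4.82) that could not be told from 1. Macrophage cluster 6, with 4 and 15 UMIs and a LPS level of 6.03 (3.38–9.95), stayed under the 20 UMIs asked of a ratio that is counted below. In the endothelial clusters together there were 7 and 4 UMIs.

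*Angpt2*, the antagonist made by activated and growing endothelium, had its highest level in cluster 4, with 1140 control and 738 LPS UMIs at 102 (96.6–109) and 75.8 (70.4–81.5), a ratio of 0.740 (0.674–0.812). Pericyte-like cluster 2 came second in control with 313 UMIs at 33.4 (29.8–37.3). With LPS only 64 UMIs were counted there, 7.62 (5.87–9.73), a ratio of 0.228 (0.171–0.299), which is 4.39-fold lower. In cluster 0 the 830 control UMIs stood against 135, levels of 9.17 (8.56–9.82) and 1.83 (1.53–2.17), a ratio of 0.200 (0.165–0.240).

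The difference was in the same direction in the smaller clusters. Cluster 1 had 130 and 37 UMIs, a ratio of 0.339 (0.229–0.492), endothelial cluster 5 had 70 and 28, a ratio of 0.374 (0.232–0.587), and macrophage cluster 6 had 22 and 1, a ratio of 0.0570 (0.00138–0.352). The control level of cluster 6 was 8.98% of the endothelial one, inside the 3.83% to 14.1% of the 5 endothelial markers there, and the LPS level was 0.750%, below their 4.94% to 31.0%. Cluster 3, with 52 and 30 UMIs, had a ratio of 0.745 (0.459–1.19). The share of all *Angpt2* UMIs that lay in endothelial clusters 4 and 5 was 46.8% in control and 73.8% in LPS.

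Beside the endothelial markers, the *Angpt2* of other clusters behaved as follows. In cluster 0 it stood at 11.7% of its endothelial level in control and at 3.41% in LPS, and the 5 markers at 2.33% to 9.42% and 1.70% to 9.32%, so the control value was above the marker range and the LPS value inside it. In cluster 1 it stood at 6.88% and 3.43%, inside the 2.36% to 8.60% and 2.09% to 9.12% of the markers in both libraries. In cluster 2 it stood at 42.5% and 14.2%, where *Esam* was at 23.6% and 14.2% and the other 4 markers at 2.65% to 8.56% and 1.96% to 7.94%. In cells without a UMI of any of the 5 markers, the *Angpt2* level was 33.6 (27.9–40.1) and 7.11 (4.95–9.89) in cluster 2 and 9.33 (8.27–10.5) and 1.43 (1.08–1.84) in cluster 0. After thinning, 9.51% (7.90–11.3) of control and 2.22% (1.52–3.14) of LPS cells of cluster 2 held an *Angpt2* UMI, against 3.62% and 3.73% for *Cdh5*, at median depths of 6853.5 and 5082 UMIs, and unthinned shares were 18.9% and 4.15%. In cluster 4 the thinned shares were 27.9% (24.7–31.4) and 20.5% (17.7–23.5).

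*Tek*, the angiopoietin receptor, was highest in cluster 5 with 811 and 531 UMIs, 191 (178–204) in control and 117 (107–127) in LPS, a ratio of 0.611 (0.547–0.683). In cluster 4 the 968 and 573 UMIs gave 87.0 (81.6–92.7) and 58.9 (54.1–63.9), a ratio of 0.677 (0.609–0.751). Outside the endothelium the ratio was 0.539 (0.470–0.618) in cluster 0, 0.537 (0.408–0.701) in cluster 1, 0.509 (0.307–0.822) in cluster 2 and 0.593 (0.383–0.902) in cluster 3. The levels there were low. In cluster 0 *Tek* stood at 6.65% of the endothelial level in control and 5.37% in LPS, within the range of the 5 markers in both libraries. The markers themselves summed to 76.6 CPM in cluster 0 in control and 54.3 in LPS. In cluster 3 *Tek* stood at 9.03% and 8.03%, above the 2.67% to 7.71% and 3.04% to 7.37% of the markers. After thinning, 41.7% (36.5–47.1) of control and 28.0% (23.8–32.4) of LPS cells of cluster 5 held a *Tek* UMI.

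*Tie1*, the partner of Tek, had the most UMIs of the 10 genes, 7535 in control and 5367 in LPS. Cluster 4 held 4060 and 3189 of them at 365 (354–376) and 328 (316–339), a ratio of 0.898 (0.857–0.941). The median ratio of all genes in cluster 4 was 0.929, and relative to it the *Tie1* ratio was 0.966. In cluster 5 its 1144 and 951 UMIs gave 269 (254–285) and 209 (196–223), a ratio of 0.776 (0.712–0.847). The ratio was 0.653 (0.598–0.713) in cluster 0 and 0.509 (0.376–0.682) in cluster 2, where the level stood at 4.78% and 4.70% of the endothelial level in control, again inside the marker range. In cluster 1 the ratio was 0.667 (0.561–0.791), at 4.66% of the endothelial level in control and 3.63% in LPS. In cluster 6 it was 0.697 (0.498–0.968), at 10.1% and 8.19%. In cluster 3 it was 0.642 (0.482–0.849), at 6.47% and 4.85%. The levels of these 3 clusters were inside the marker range in both libraries. Without cells over 10% mitochondrial UMIs the cluster 3 ratio was 1.35, from 20 and 26 UMIs. Both Tie receptors were thus lower with LPS in each endothelial cluster, with the ratio nearer to 1 for *Tie1* than for *Tek*; relative to the median of all genes *Tek* was at 0.728 in cluster 4 and 0.643 in cluster 5, and *Tie1* at 0.817 in cluster 5.

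Endothelial cluster 5 differed between the libraries in more than these genes. The 5 arterial markers (*Gja5*, *Gja4*, *Hey1*, *Sox17*, *Bmx*), of which 4 were detected there, summed to 705 CPM in control and 283 in LPS, and the 5 measured capillary markers to 269 and 87.9. The 4 measured venous or activated markers summed to 690 and 1178, the lymphatic markers, with 4 of 5 detected, to 156 and 437, and the 5 endothelial markers to 1087 and 929. In cluster 4 the capillary markers summed to 2853 and 1807 and the endothelial markers to 1983 and 1720. The lymphatic markers were higher with LPS in cluster 4 too, at 205 and 403. Arterial markers summed there to 293 and 255, and venous or activated markers to 101 and 133. Whether a different mix of endothelial cells in cluster 5 took part in the *Kdr*, *Nrp1*, *Angpt2*, *Tek* and *Tie1* ratios was not tested. In cells of cluster 5 without an arterial marker UMI, 22 in control and 102 in LPS, the ratio was 0.224 for *Kdr*, 0.148 for *Angpt2* and 0.811 for *Tek*, from 11 and 10, 5 and 3, and 24 and 79 UMIs, while *Tie1* came to 1.03, from 33 and 138.

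**Figure D3:**
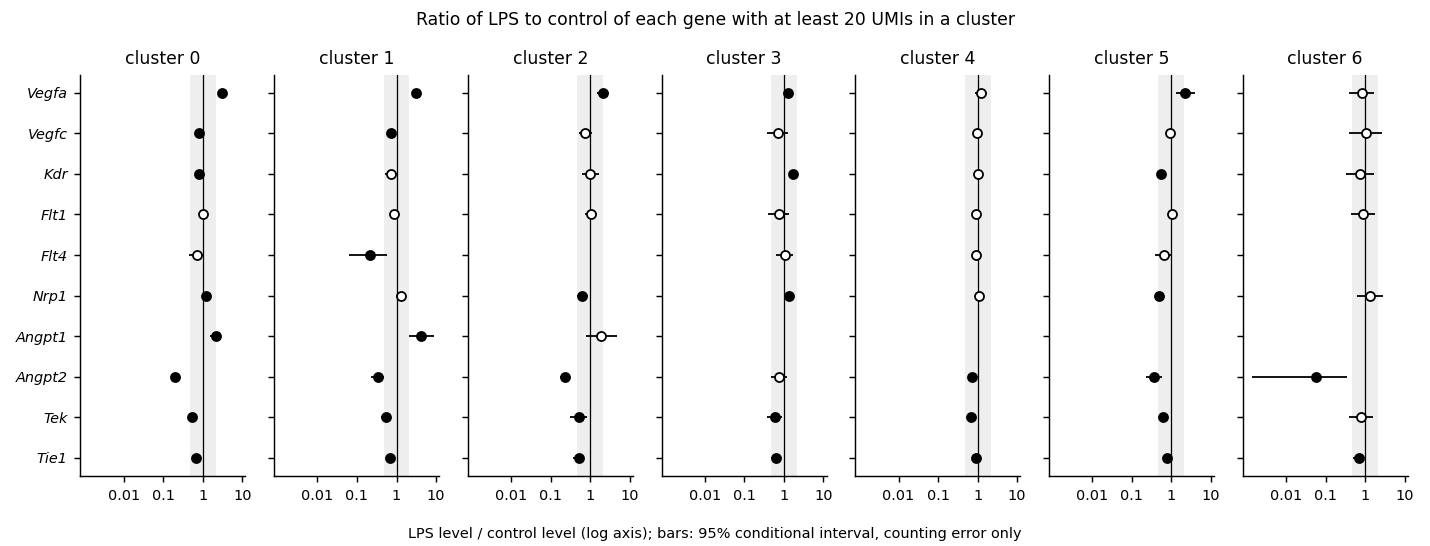
Ratio of the LPS to the control level (horizontal log axis) of each gene with at least 20 UMIs in clusters 0 to 6; bars are 95% conditional intervals, filled points have intervals that exclude 1 and the grey band spans ratios from 0.5 to 2. *Vegfa* is past the band to the right in clusters 0, 1, 2 and 5, and *Angpt2* to the left in clusters 0, 1, 2, 5 and 6.

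A ratio of at least 2 or at most 0.5, in genes with at least 20 UMIs over both libraries in a cluster, was counted for the 10 genes and for all genes alike. In cluster 0, 2 of 10 were higher with LPS (*Vegfa*, *Angpt1*), where 3.64% of all 13447 genes were, and 1 was lower (*Angpt2*), where 11.5% were. In cluster 1, 2 of 10 were higher, the same genes, against 3.39%, and 2 were lower (*Flt4*, *Angpt2*) against 7.58%. In cluster 2, 1 of 9 was higher (*Vegfa*) against 3.06% and 1 lower (*Angpt2*) against 7.07%.

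None of 9 passed the limit in cluster 3, where 2.27% of all genes were higher and 3.29% lower, and none of 9 in cluster 4, where 3.03% were higher and 6.60% lower. In cluster 5, 1 of 9 was higher (*Vegfa*) against 4.86% and 1 lower (*Angpt2*) against 6.74%. In cluster 6, 0 of 8 were higher against 4.73% and 1 was lower (*Angpt2*) against 16.2%. With so few genes, 1 or 2 past the limit is not set apart from these shares. The median log2 ratio of the genes counted, 8 to 10 by cluster, was −0.32 in cluster 0 where that of all genes was −0.15, −0.45 against −0.08 in cluster 1, −0.42 against −0.14 in cluster 2, −0.42 against −0.02 in cluster 3, −0.13 against −0.11 in cluster 4 −0.64 against −0.07 in cluster 5 and −0.29 against −0.35 in cluster 6. These medians carry no test.

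**Figure D4:**
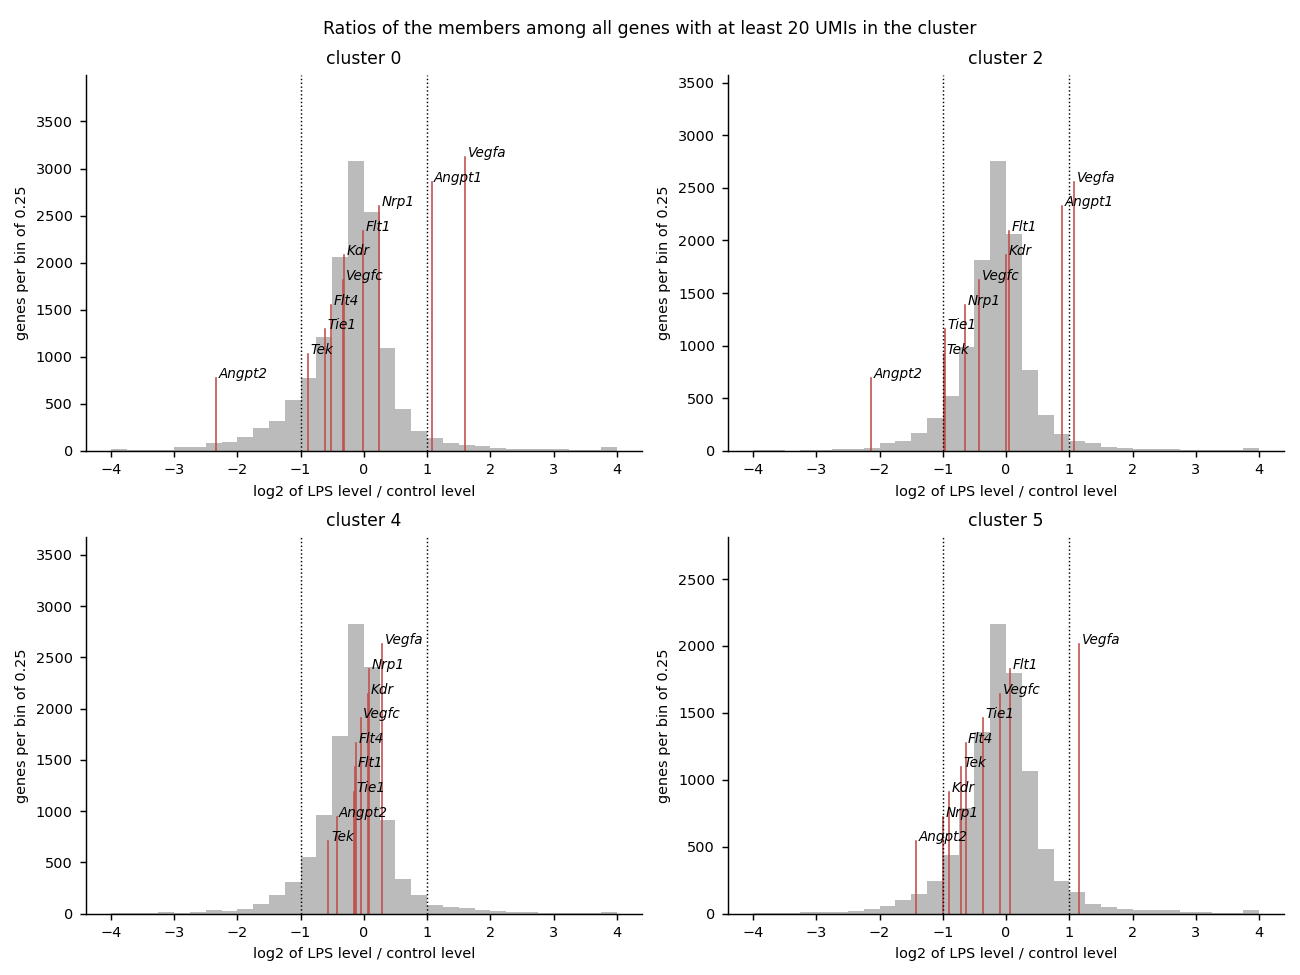
Number of genes (vertical axis) by log2 ratio of the LPS to the control level (horizontal axis, bins of 0.25) among all genes with at least 20 UMIs in clusters 0, 2, 4 and 5, with red lines at the members and dotted lines at 2-fold; the outermost bins also hold ratios beyond the axis, and genes with no UMI in 1 library are not drawn. *Vegfa* lies at 1.60 and *Angpt2* at −2.33 in cluster 0, and the members of cluster 4 all lie inside the dotted lines.

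The rest of the pathway was read from a list of 34 genes, of which 31 were measured. In cluster 0, 3 of 31 were higher past 2-fold and 7 lower, where 3.64% and 11.5% of all genes were. The counts were 2 and 2 of 29 in cluster 1 (3.39% and 7.58% of all genes), 5 and 4 of 24 in cluster 2 (3.06% and 7.07%) and 2 and 3 of 22 in cluster 3 (2.27% and 3.29%). In cluster 4 they were 0 and 5 of 27 (3.03% and 6.60%), in cluster 5, 5 and 3 of 24 (4.86% and 6.74%), and in cluster 6, 3 and 3 of 18 (4.73% and 16.2%). Median log2 ratios of the list, with those of all genes after them, were −0.39 and −0.15 in cluster 0, −0.30 and −0.08 in cluster 1, −0.32 and −0.14 in cluster 2 and 0.01 and −0.02 in cluster 3. They were −0.10 and −0.11 in cluster 4, 0.13 and −0.07 in cluster 5, and −0.20 and −0.35 in cluster 6.

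Among the ligands, *Vegfd*, the second ligand of Flt4, went from 4775 to 1272 UMIs in cluster 0, 52.8 and 17.2 CPM, a ratio of 0.327 (0.307–0.348). Its ratio was below 0.5 in each of clusters 0 to 9, from 0.0940 in cluster 6 to 0.480 in cluster 7. In endothelial cluster 4 its level was 26.4% of the cluster 0 level in control and 25.6% in LPS, and the 8 fibroblast markers stood there at 19.0% to 33.2% and 16.7% to 30.8%. In clusters 2, 3, 5 and 8 the *Vegfd* level was 29.0% to 39.1% in control and 19.1% to 46.3% in LPS. It was inside the marker range of each of these clusters in both libraries. In macrophage cluster 6 it was 48.7% and 14.0%, above these markers in control (28.0% to 42.6%) and below them in LPS (22.7% to 35.8%). *Pgf*, placental growth factor, which binds Flt1, was at 507 and 592 in cluster 4, a ratio of 1.17 (1.12–1.21). The ligand gene *Vegfb* was lower past 2-fold in clusters 2 and 4, at under 10 CPM in both libraries. *Nrp2*, the coreceptor that pairs with Flt4, went the other way from *Nrp1* in cluster 5, with 149 and 323 UMIs and a ratio of 2.02 (1.66–2.47). It had ratios of 2.26 in cluster 0, 2.11 in cluster 2 and 2.26 in cluster 3. Its LPS levels there were 51.6, 38.8 and 25.9. With LPS the 8 fibroblast markers stood at 19.0% to 77.7% of their cluster 0 level in cluster 2. In cluster 3 they stood at 18.3% to 53.2%. The part of fibroblast RNA in the *Nrp2* levels of clusters 2 and 3 was not tested.

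*Angptl4*, an angiopoietin-like inhibitor of lipoprotein lipase that does not bind Tek, passed the limit upward in clusters 0, 1, 2, 3 and 5. The widest difference was in cluster 1, from 16.2 to 67.9 (ratio 4.18, 3.74–4.69). In cluster 3 *Angptl4* stood at 55.3% of its cluster 0 level in control and at 51.9% in LPS. The 8 fibroblast markers stood there at 18.6% to 46.8% and 18.3% to 53.2%. The control value was above their range and the LPS value inside it. In clusters 2 and 5 *Angptl4* was above the marker range in both libraries. The part of fibroblast RNA in these levels was not tested. *Hif1a*, the oxygen-regulated transcription factor that acts on *Vegfa*, was at 85.6 and 228 in cluster 0, a ratio of 2.66 (2.59–2.73). It had ratios of 2.3 in cluster 1, 2.74 in cluster 2, 2.40 in cluster 5 and 3.74 in cluster 6. *Egln3*, a prolyl hydroxylase of that pathway, passed the limit in clusters 2 (2.48) and 6 (2.18). Of the genes known to answer VEGF in endothelium, *Esm1* was at 109 and 144 in cluster 4 (ratio 1.32, 1.22–1.42). *Apln* was at 344 and 378 there (ratio 1.10, 1.05–1.15). *Adamts1*, of the same group of genes, was lower past 2-fold in clusters 0 and 4, at under 10 CPM in both libraries. No pathway gene was higher past 2-fold in cluster 4. *Kcne3*, a potassium channel subunit, was at 30.8 and 8.79 in cluster 5 (ratio 0.285, 0.195–0.409). In the same cluster the Notch ligand gene *Dll4* was at 2.12 and 5.27 from 9 and 24 UMIs (ratio 2.49, 1.12–6.09), and *Nr4a1*, an orphan nuclear receptor, at 2.35 and 5.05 from 10 and 23 UMIs (ratio 2.15, 0.983–5.06, an interval that includes 1). *Nr4a1* was at 6.41 and 14.5 in cluster 2.

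In macrophage cluster 6, *Mmp9*, a protease that can free matrix-bound VEGF, went from 182 to 897 (ratio 4.92, 4.48–5.40). *Rcan1*, a calcineurin regulator, was at 48.2 and 16.5 there and *Esm1* at 10.9 and 5.23. The *Esm1* level of endothelial cluster 4, given above, was higher. The 5 endothelial markers stood in cluster 6 at 3.83% to 14.1% of their endothelial level in control and at 4.94% to 31.0% in LPS. The part of endothelial RNA in the *Esm1* level of cluster 6 was not tested. The small fibroblast cluster 7, with 104 and 144 cells, had lower levels of *Pgf* (46.6 and 19.7), *Angptl2* (11 and 2.63), *Cdh5* (30.8 and 9.87), *Pik3r1* (63.0 and 30.9) and *Apln* (13.7 and 3.29). Its 5 endothelial markers summed to 131 CPM in control and 51.3 in LPS, and their part in these differences was not tested.

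**Figure D5:**
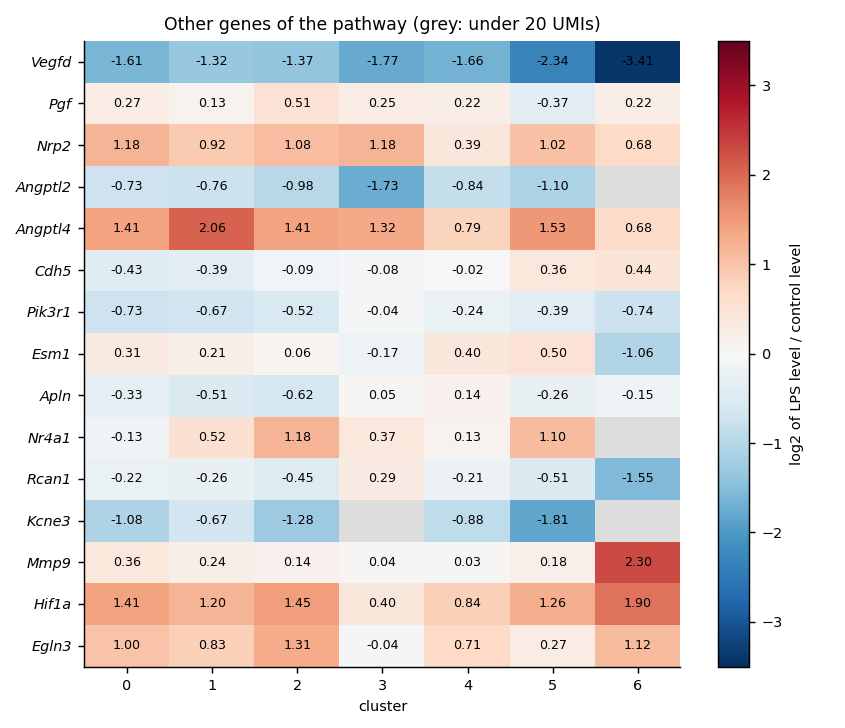
Log2 ratio of the LPS to the control level (colour and printed value) of the 15 named genes of the rest of the pathway in clusters 0 to 6; grey marks genes with under 20 UMIs over both libraries. *Vegfd* is negative in all 7 clusters, and *Nrp2*, *Angptl4* and *Hif1a* are positive in all 7.

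Across clusters 0 to 9 in both libraries, 20 points that share their libraries, the genes most like each member were named by the Pearson correlation of log2(CPM + 10) among 9896 genes. *Tie1* was followed most closely by *Mfng* (r = 0.993), *Fam110d* (0.992) and *Fam167b* (0.987), *Flt1* by *Gata2* (0.980), *Grasp* and *Tal1*, and *Flt4* by *Kit* (0.972), *Podxl* and *Tspan13*. *Kdr* was followed by *Uba1* (0.961), *Podxl* (0.960) and *Cdh13*, *Tek* by *Arhgef15* (0.962), *Mmrn2* (0.962) and *Tal1*, and *Nrp1* by *Hid1* (0.959), *Arhgef7* and *Mtus1*. For the ligands these were *Acacb* (0.961), LOC100912578 and *Adcy5* for *Vegfa*, *S100a16* (0.914), *Luzp1* and *Cep68* for *Vegfc*, *Meox2* (0.939), *Sez6* and *Sparcl1* for *Angpt2*, and *Il6* (0.903), *Ccrl2* and *Acod1* for *Angpt1*. All *Angpt1* levels lay below the 10 that was added to CPM. Its highest was 6.03, from 15 UMIs in macrophage cluster 6 with LPS, and no other exceeded 1.89. Little can therefore be read from the genes named for *Angpt1*. The correlations describe 20 points that differ mostly by cell type, and carry no test.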

How the data were processed

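For each library the authors deposited a matrix of raw UMI counts per gene and cell and a table of the cluster and cell type of each cell. The submitters' processing notes name Cell Ranger 2.2.0 and Seurat 2.3.4, and by the study's methods clusters came from aligning both libraries and a resolution of 0.5; the genome build and annotation are not given in the sources used here. All cells with a cluster entered (11529 control and 12681 LPS cells), 2 control and 8 LPS cells had none, and no doublet caller was run. UMIs of a gene were summed per cluster and library and divided by the cluster's total, as CPM (Python 3.11.15, numpy 2.4.6, scipy 1.17.1, pandas 2.3.3). The 95% intervals are exact: Poisson for levels, conditional binomial for ratios, Clopper-Pearson for the shares. Calculations were checked on simulated data.

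A ratio was counted at 2-fold or more with at least 20 UMIs over both libraries, in clusters of at least 500 cells. Shares of cells came from cells thinned to 3000 UMIs without replacement. Where no UMI was counted, 3 UMIs were taken as the limit. Named were all 10 genes, pathway genes at 10 CPM or more and past 2-fold in a cluster of at least 100 cells, and the 3 genes most alike to each member. *Esm1*, *Apln* and *Pgf* in cluster 4, *Dll4* and *Nr4a1* in cluster 5, and *Adamts1* in clusters 0 and 4 are outside this rule. *Vegfb* in clusters 2 and 4 is also outside it. All of these were added after their values were seen. The genes and lists were chosen with earlier results of these data known. Alternatives left out mitochondrial-rich, gene-poor or UMI-rich cells, thinned cells, or changed the total, the scale, the fold or the UMI minimum.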

Additional observations from a re-analysis of the deposited data

Results flagged for a closer look

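*Kdr* and *Nrp1* were singled out because their LPS to control ratios lay on opposite sides of 1 in different clusters, each with an interval that excluded 1. For *Kdr* the ratio was 1.68 in the ICA and cardiomyocyte cluster 3, 0.805 in fibroblast cluster 0 and 0.536 in endothelial cluster 5. The cluster 3 value turned to 0.961 without cells over 10% mitochondrial UMIs, from 13 and 12 UMIs. In cluster 0 the *Kdr* level was 5.21% of the endothelial level in control and 4.57% in LPS, inside the 2.33% to 9.42% and 1.70% to 9.32% of 5 endothelial markers, whose sum there was 76.6 CPM (UMIs per 1000000) and 54.3 CPM, and the ratio was 0.894 relative to the median of all genes. For *Nrp1* it was 1.34 in cluster 3 and 1.18 in cluster 0, against 0.636 in pericyte-like cluster 2 and 0.501 in cluster 5. The differences between clusters were not tested, since each condition had 1 library and the cells of a library are not replicates. In cluster 5 the arterial markers summed to 705 CPM in control and 283 in LPS, and their part in the *Kdr* and *Nrp1* ratios was not tested.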

How the results depend on the processing

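No paired analysis was possible because a single library stood for each treatment. Of 501 ratios recomputed under the alternatives, 464 stayed inside the counting interval, 34 moved outside it and 3 were counted as changing direction. A change of direction was counted only for the 36 ratios whose interval excluded 1, of which 33 kept their direction throughout. Ratios whose interval held 1 could cross it without being counted. The 3 were *Kdr* (0.961) and *Tie1* (1.35) in cluster 3 without cells over 10% mitochondrial UMIs, where 55 control and 85 LPS cells remained, and *Tie1* in cluster 5 (1.03) without cells with an arterial marker UMI. The same filters gave 1.76 for *Vegfa* in cluster 3, and 0.224 for *Kdr*, 0.148 for *Angpt2* and 0.811 for *Tek* in cluster 5. *Vegfa* in cluster 0 was 3.36 when divided by the median ratio of all genes, *Nrp1* in cluster 5 was 0.401 after thinning to 3000 UMIs, and *Angpt2* in cluster 0 was 0.154 after thinning and 0.153 without cells with an endothelial marker UMI. Of gene and cluster pairs past 2-fold, 6 were lower with LPS, against 18 at 1.5-fold, 3 with at least 100 UMIs and 10 from the mean of each cell's own level; the 6 higher pairs stayed between 4 and 8. Of 20 levels, 7 moved past their interval when each cell's own level was averaged, and all 40 shares of cells moved with another depth of thinning or none, as fewer or more UMIs per cell give. The marker filters were chosen after seeing the data. Depth limits *Angpt1*, *Flt4* outside the endothelium and clusters 7 to 10, where many counts were under 20 UMIs, and the spread between animals or libraries is not measured.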
